A study of Drosophila melanogaster with 4 samples.

Results

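Smc3 clusters, the regions enriched in chromatin immunoprecipitated with an antibody to Smc3, were examined at the telomeric ends of chromosome arms 2L, 3L, X and 3R of Drosophila melanogaster. A cluster belonged to the distal 1 Mb of an arm when its midpoint lay from 1 to 1000000 on 2L, 3L or X, or from 26905054 to 27905053 on 3R, in coordinates of FlyBase release 5. The distal 1 Mb held 139 of the 7858 clusters of ChIP replicate 1, 113 of the 6505 clusters of ChIP replicate 2, and 379 of the 15781 enriched clusters of the authors' replicate-set list. By arm, 2L held 40, 26 and 87 of these clusters, 3L 42, 23 and 89, X 27, 32 and 116, and 3R 30, 32 and 87, in the order replicate 1, replicate 2, replicate set. Membership was set by position, and no cluster's width or score decided it. At the boundary of 1 Mb, the innermost midpoints inside it lay 968.3 to 984.8 kb from the end in replicate 1, and the first ones outside it 1000.5 to 1023.0 kb.

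Smc3 belongs to the core of cohesin, a protein ring that keeps sister chromatids paired until they separate. Cohesin is loaded onto chromatin with the help of Nipped-B and takes part in the folding of chromosomes and in gene regulation. The ends of Drosophila chromosomes are unusual, since they are kept by arrays of the retrotransposons HeT-A, TART and TAHRE and not by telomerase. Telomere-associated satellite repeats and then gene-bearing sequence follow inwards from these arrays. How far the arm sequences of release 5 reach into the repeats is not given in the sources used here, so the telomeric end stands here for the last base of the arm sequence.

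The data came from ChIP-seq of nuclei of wild-type larvae of instar 3 of the strain Oregon-R, with an affinity-purified rabbit polyclonal antibody to Smc3. There were 2 Smc3 ChIP samples and 2 Input samples, and cluster lists were analysed for the 2 ChIP samples and for the replicate set, with no separate values for the Input samples. Larvae contain many tissues, so a cluster is an average over the cell types of the animal. The sample that the title and source name give as ChIP replicate 2 has a description that names input DNA alone, and it was taken as ChIP from its title, so values are given for each replicate apart. Whether the replicates were separate collections is not stated in the labels, so their spread may be technical, and sequencing depth is unknown. With 2 replicates, an exact sign-flip permutation test of a distal difference cannot go below p = 0.5, so differences are given with their spread and without a test.

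As a whole, the distal 1 Mb of these arms was not densely occupied by Smc3 clusters. Pooled over the 4 arms, 7.07% of its bases lay inside clusters of replicate 1, against 9.96% of the next 4 Mb of the same arms. In replicate 2 the shares were 5.05% and 5.56%, and in the replicate-set list they were 16.7% and 18.0%. The difference between the distal 1 Mb and the next 4 Mb was -1.70 percentage points ± 1.69 (SD, n = 2), about the size of the spread between the replicates. Without X it was -0.733, and against the next 2 Mb alone it was -0.724, with replicate 2 at 0.465 and the replicate set at 0.717, so the sign is not the same in each list there. Taking the next 4 Mb one by one gave 8.14% to 11.4% in replicate 1, all above the distal value. In replicate 2 they ran from 4.21% to 7.24% and in the replicate set from 15.1% to 21.5%, and the distal value lay within both ranges.

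The arms did not share one pattern. On X, the distal 1 Mb was covered to 5.15% in replicate 1 and to 5.18% in replicate 2, almost the same share. The next 4 Mb of X was covered to 14.0% in replicate 1, with single megabases from 11.2% to 18.2%, and to 5.56% in replicate 2, with single megabases from 2.74% to 8.99%. In total cover the replicates thus differed more in the interior stretch of X than at its end, although window by window they correlated less at the end. Cluster by cluster, the order depended on the direction. Of replicate 2 clusters, 31.2% at the end and 70.5% farther in were found in replicate 1. Of replicate 1 clusters, 37.0% and 32.1% were found in replicate 2. In number, X held 27 distal clusters against 65.5 per Mb farther in for replicate 1, and 32 against 30.5 per Mb for replicate 2. In the replicate-set list X had 116 distal clusters, the highest number among the 4 arms, and a distal cover of 19.3% against 20.1% farther in.

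On 2L, the distal cover was 8.42% against 8.60% in replicate 1. It was 4.69% against 7.22% in replicate 2, where each of the next 4 Mb reached at least 5.64%. On 3L, the distal and interior shares were nearly equal in each list, at 9.19% and 8.66% in replicate 1, 4.75% and 4.57% in replicate 2, and 17.29% and 17.32% in the replicate set. On 3R the replicates went opposite ways. Replicate 1 covered 5.51% of the distal 1 Mb and at least 7.03% of each of the next 4 Mb, while replicate 2 covered 5.57% of it and at most 5.45% of each of the next 4 Mb. As on X, the distal shares of 3R were alike in the replicates and the interior shares were not.

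**Figure D1:**
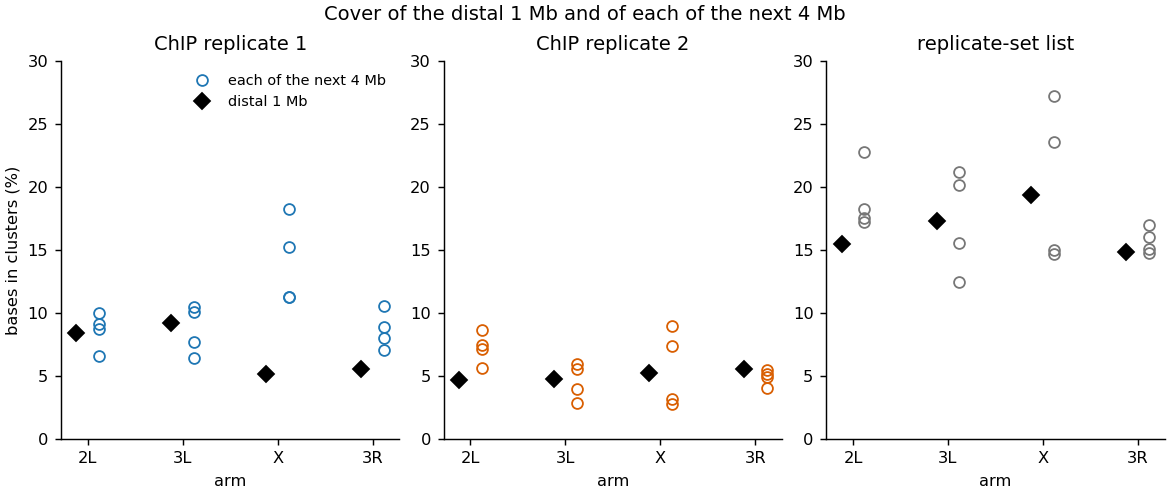
Percent of bases inside Smc3 clusters in the distal 1 Mb (black diamonds) and in each of the next 4 Mb (open circles) of arms 2L, 3L, X and 3R, with 1 panel per list. In replicate 1 the diamond of X, at 5.15%, lies below its circles of 11.2% to 18.2%, while in replicate 2 it lies among circles of 2.74% to 8.99%.

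Pooled over the 4 arms, single distal clusters were close in median width and median score to those farther in. The difference in median width varied by arm, from -51.5 bp on 3R to 17 bp on 3L in replicate 1. It ran from -183 bp on X to 218.5 bp on 2L in replicate 2. In the replicate set it ran from -449 bp on X to 165 bp on 3L. The spacing of distal clusters was not compared with that farther in. Midpoints of neighbours lay a median of 16.2 kb apart in replicate 1, 22.5 kb in replicate 2 and 6.25 kb in the replicate set. Their median width was 1982 bp against 2000 bp in the next 4 Mb for replicate 1, 1590 bp against 1618 bp for replicate 2 and 1549 bp against 1611 bp for the replicate set. Widths ran from 1302 to 4741 bp in replicate 1, from 1302 to 9412 bp in replicate 2 and from 1001 to 9407 bp in the replicate set. Clusters of at least 3 kb made up 12 of the 139 distal clusters of replicate 1, 1 of the 113 of replicate 2 and 27 of the 379 of the replicate set. Those shares were 8.63%, 0.885% and 7.12%, against 8.16%, 3.98% and 6.49% in the next 4 Mb, so that wide clusters were a smaller share at the ends in replicate 2. Each cluster carries a log2 score from the authors, whose level can be compared only within a list. It had a distal median of 0.66 against 0.67 in replicate 1, of 0.71 against 0.66 in replicate 2 and of 0.49 against 0.47 in the replicate set. The difference in median score was 0.02 ± 0.04 (SD, n = 2). Within the distal 1 Mb, X had the highest median score of the 4 arms in each list, with medians of 0.77, 0.80 and 0.52 in the order above. The medians of 2L, 3L and 3R lay from 0.63 to 0.65 in replicate 1, from 0.65 to 0.72 in replicate 2 and at 0.47 each in the replicate set. X also had the highest median of the 4 arms in the next 4 Mb, at 0.77, 0.70 and 0.53, so its higher scores were not particular to its end. Distal clusters with higher scores were wider in replicate 1 (Spearman correlation across 139 clusters 0.567), and less so in replicate 2 (0.249 across 113) and in the replicate set (0.109 across 379). In the next 4 Mb these correlations were 0.644, 0.221 and 0.158, so the relation was not particular to distal clusters.

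Within the distal 1 Mb, clusters lay more densely in the outermost 250 kb than in the 750 kb behind it, a division chosen after the windows of 50 kb had been seen. Replicate 1 held 46 clusters in the outer 250 kb of the 4 arms and covered 10.1% of it, against 93 clusters and 6.07% from 250 to 1000 kb. Replicate 2 held 42 clusters and covered 8.16%, against 71 clusters and 4.01%. The replicate-set list held 134 clusters and covered 27.1%, against 245 clusters and 13.3%. The difference in cover was 4.07 percentage points ± 0.10 (SD, n = 2), larger than the spread between the replicates when pooled over arms. The replicates were less alike without X, at 4.78 and 2.85, and with only the clusters scoring at or above the median of their list, at 2.98 and 6.01.

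Arm by arm the contrast was less even. Outer cover exceeded inner cover in 7 of the 8 pairs of arm and replicate and in 4 of 4 arms of the replicate set. On 2L the outer 250 kb was covered to 13.2% and the rest of the distal 1 Mb to 6.85% in replicate 1, and to 5.82% and 4.32% in replicate 2. On 3L the shares were 15.8% and 6.99% in replicate 1 and 7.39% and 3.86% in replicate 2. On X they were 6.40% and 4.73% in replicate 1 and 11.2% and 3.17% in replicate 2. The exception was 3R in replicate 1, at 4.93% and 5.71%, while replicate 2 had 8.20% and 4.69% there. The autosomes 2L and 3L thus had the higher outer cover in replicate 1, and X and 3R had it in replicate 2.

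Set against the whole outer 5 Mb, the outermost block of 250 kb stood high in replicate 2 and the replicate set, but not in replicate 1. The block behind it stood low in both replicates. Among the 20 blocks of 250 kb, pooled over the 4 arms, the outermost block ranked 8th from the top in replicate 1 and 2nd in replicate 2. It ranked 1st in the replicate set. On 2L, 3L, X and 3R in that order, it ranked 2nd, 1st, 17th and 16th in replicate 1. In replicate 2 it ranked 12th, 3rd, 1st and 2nd. The block from 250 to 500 kb had the lowest cover of the 20 in both replicates, at 4.91% in replicate 1 and 3.13% in replicate 2. In the replicate set the lowest was the block from 500 to 750 kb, at 10.5%. The outer 250 kb was covered more than the next 4 Mb in 5 of 8 pairs of arm and replicate. The pooled difference from the next 4 Mb was 0.11 percentage points in replicate 1 and 2.60 in replicate 2. The pooled excess over the interior of the arms thus differed widely between the replicates. The pooled excess over the neighbouring sequence, from 250 to 1000 kb, was alike at 4.00 and 4.14, but only because differences between arms offset each other. By arm, that excess was larger in replicate 1 on 2L and 3L, and larger in replicate 2 on X and 3R.

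**Figure D2:**
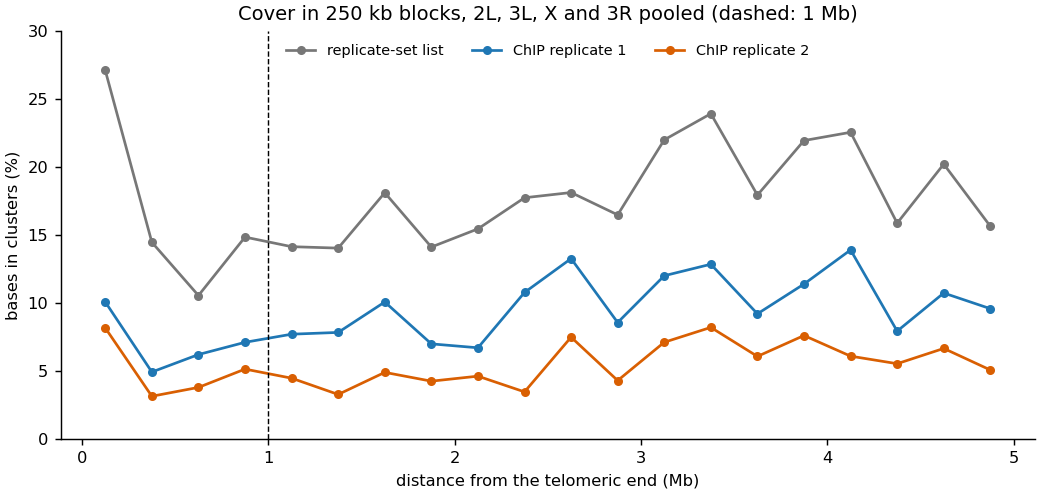
Percent of bases inside Smc3 clusters in blocks of 250 kb by distance from the telomeric end in Mb, with arms 2L, 3L, X and 3R pooled and 1 line per list. Cover starts at 10.1%, 8.16% and 27.1% in replicate 1, replicate 2 and the replicate set, drops to 4.91%, 3.13% and 14.5% in the next block, and in the block from 750 to 1000 kb it stands at 7.10%, 5.13% and 14.8%.

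In windows of 50 kb, distal cover was uneven along each arm. The mean over the 4 arms was 9.66% and 9.74% in the outermost window, for replicates 1 and 2, and 11.6% and 14.1% in the window from 50 to 100 kb. It was low from 750 to 800 kb, at 1.91%, the lowest of the 20 windows in replicate 1, and at 0.723% in replicate 2, whose lowest window was that from 350 to 400 kb at 0.707%. Of the 80 distal windows, 17 held no bases of a cluster in replicate 1, 20 held none in replicate 2, and 6 held none in either. In the next 4 Mb, 28 of 320 windows were empty in replicate 1, 82 in replicate 2 and 17 in both. Empty windows were thus 21.2% of the distal and 8.75% of the interior windows in replicate 1, and 25% and 25.6% in replicate 2.

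On 3L the outermost 50 kb held no cluster in any of the 3 lists, and the window behind it had the highest mean cover of the replicates among the 100 windows of the outer 5 Mb of the arm. From 50001 to 100000, clusters covered 28.0% of bases in replicate 1 and 26.7% in replicate 2, while the replicate set had 59.2%. This window ranked 2nd, 1st and 1st among the 100 windows of the outer 5 Mb of 3L in replicate 1, replicate 2 and the replicate set. Its mean was 27.4% ± 0.93 (SD, n = 2), with the smallest spread among the windows of highest mean cover in the distal 1 Mb of each arm. From 150 to 200 kb, by contrast, 3L was covered to 20.4% in replicate 1 and to 0% in replicate 2.

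Among the 20 distal windows of 3R, the highest mean cover was in the outermost one, from 27855054 to 27905053. Clusters covered 13.7% of it in replicate 1 and 21.1% in replicate 2, while the replicate set had 39.3%, at ranks 17, 2 and 1 among the 100 windows of the outer 5 Mb. Among the distal windows of X, that from 50001 to 100000 had the highest mean, at 9.76% in replicate 1 and 17.5% in replicate 2, while the replicate set had 56.9%, with ranks 52, 5 and 1. On distal 2L it was the window from 100001 to 150000, where the replicates diverged most. Replicate 1 covered 29.5% of it with 6 clusters, the highest share of the 100 windows of the outer 5 Mb of 2L, and replicate 2 covered 3.07% with 1 cluster, at rank 70. The replicate-set list covered 40.4% of that window with 12 clusters. In the outermost 50 kb, 2L was covered to 12.5% and 9.44% and X to 12.5% and 8.44%, in replicates 1 and 2, so that of the 4 arms only 3L had an empty end window.

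Across the 20 distal windows of an arm, the cover of the replicates correlated at 0.716 on 3L, 0.556 on 3R, 0.407 on 2L and 0.199 on X (Pearson). Across the 80 windows farther in, it was 0.198 on 3L, 0.479 on 3R, 0.478 on 2L and 0.541 on X. These values describe windows of one genome that share their libraries. The 3L value includes the outermost pair of windows, empty in both lists and then dense in both.

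**Figure D3:**
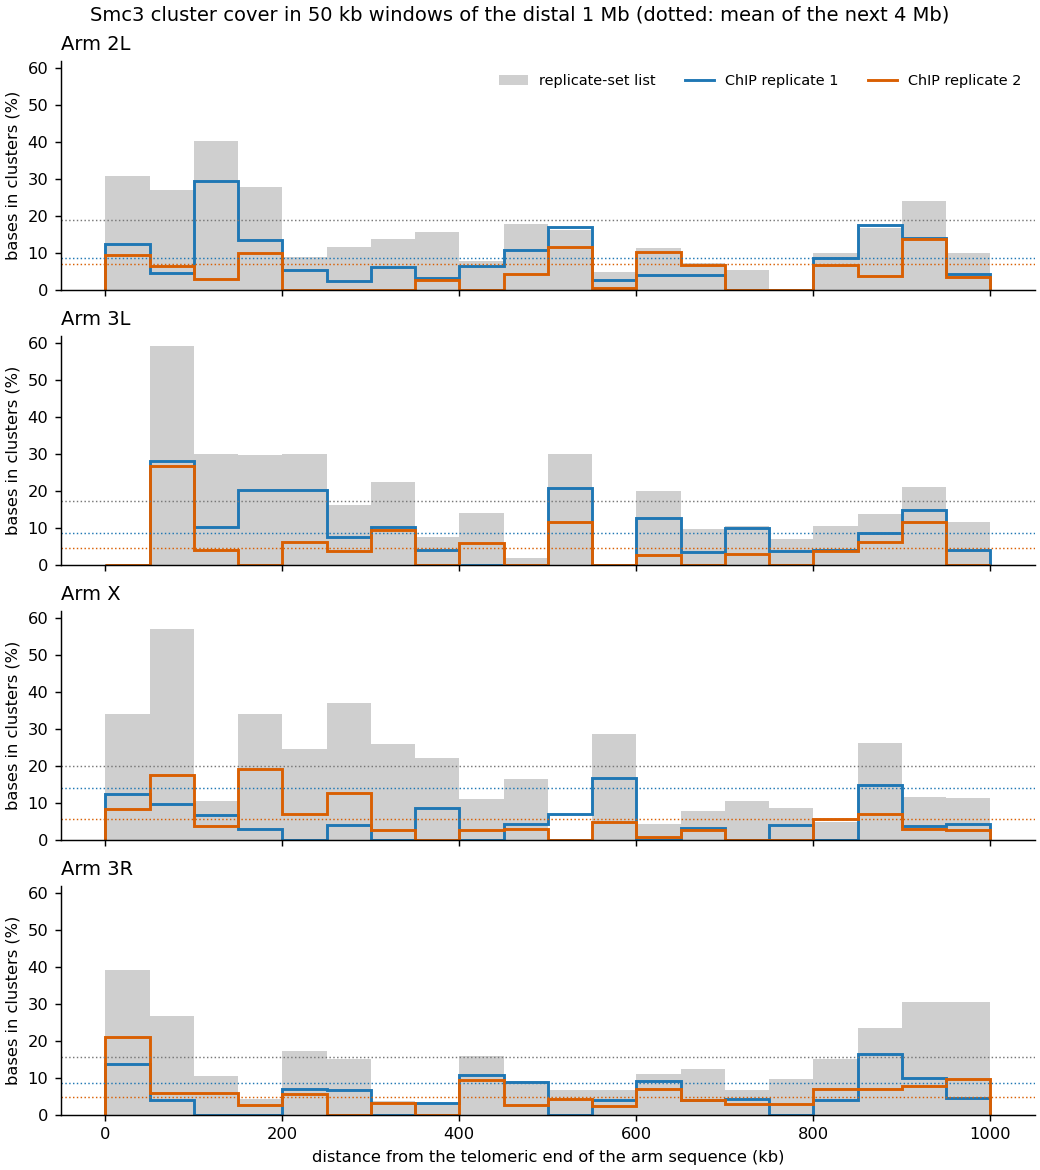
Percent of bases inside Smc3 clusters in windows of 50 kb by distance from the telomeric end in kb, with 1 panel per arm, lines for the replicates, grey fill for the replicate-set list, and dotted lines at the mean of the next 4 Mb for each list. The fill is tallest at 59.2% on 3L and 56.9% on X, both from 50 to 100 kb, and the outermost window of 3L is empty in all 3 lists.

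Apart from 3L, the first cluster from the sequence end lay at most 22.5 kb from it in each list. On 3R, replicate 2 began 6.48 kb from the end, with a cluster from 27896718 to 27898574 (score 0.75), and replicate 1 began 9.89 kb from it, with a cluster from 27893430 to 27895158 (score 0.48). On X, the outermost cluster of replicate 1 lay from 7025 to 8475 (score 0.51) and that of replicate 2 from 22547 to 23899 (score 0.89). The replicate-set list placed one still farther out on X, from 954 to 1986 with a score of 1.04, its highest score in the distal 1 Mb of X, where neither replicate had a cluster. On 2L, replicate 1 began at 15651 with a cluster to 17813 (score 1.06) and replicate 2 at 11166 with a cluster to 12497 (score 0.55). In these 3 arms the outermost clusters of the replicates did not overlap each other.

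On 3L the replicates began at nearly the same place. The first cluster of replicate 1 lay from 53614 to 58054, a width of 4441 bp with a score of 0.75. It fell wholly inside the first cluster of replicate 2, from 51115 to 60526, which at 9412 bp was the widest cluster of replicate 2 in the distal 1 Mb of any of the 4 arms and the highest-scoring on distal 3L, at 1.08. The replicate-set list had a cluster from 51072 to 60478 there, also the widest of its distal clusters. At 4441 bp this was also the longest run of bases that a single cluster of one replicate and a single cluster of the other had in common. On the other arms the longest such runs were 2402 bp on 2L, 2218 bp on 3R and 1985 bp on X.

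**Figure D4:**
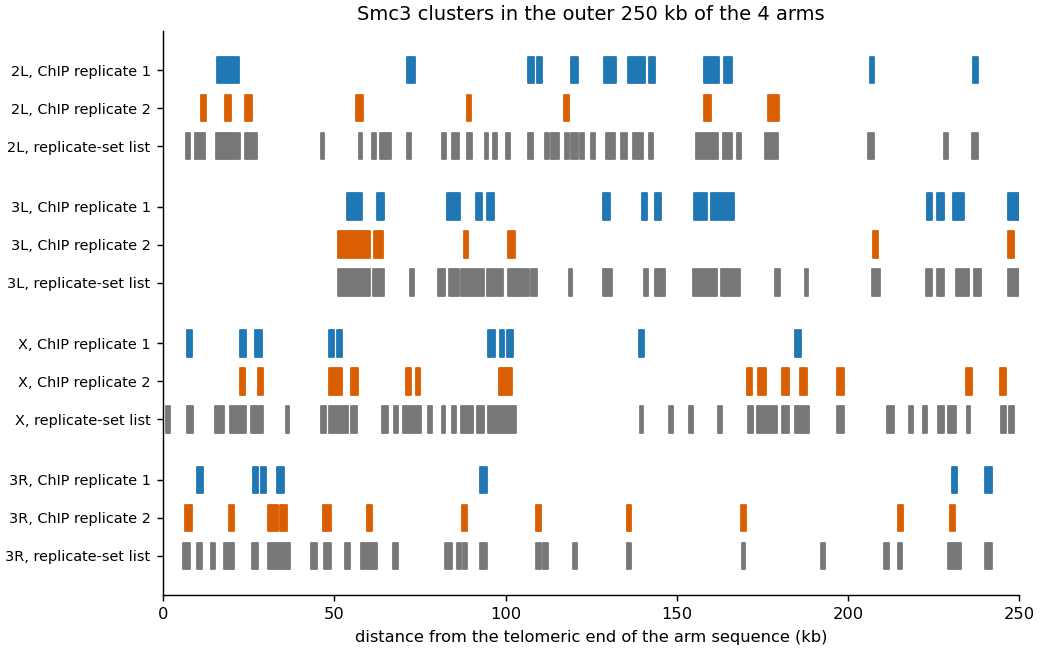
Smc3 clusters, drawn to scale as bars, in the outer 250 kb of arms 2L, 3L, X and 3R, by distance from the telomeric end in kb, with 1 row per arm and list. The first bars of 3L start at 53.6 kb in replicate 1 and at 51.1 kb in replicate 2, and the replicate-set list holds 134 bars against 46 and 42 in the replicates.

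Scores were also higher towards the ends within each list. The median score was 0.71 in the outer 250 kb and 0.64 from 250 to 1000 kb in replicate 1, 0.83 and 0.65 in replicate 2, and 0.53 and 0.47 in the replicate set. The difference was 0.13 ± 0.08 (SD, n = 2). It was positive in 7 of 8 pairs of arm and replicate, the exception being 2L in replicate 1 at 0.62 and 0.63, and in 4 of 4 arms of the replicate set. In replicate 2 the outer medians were 0.79 on 2L, 0.83 on 3L, 0.88 on X and 0.81 on 3R, and the inner medians lay from 0.61 to 0.69. Scores of single clusters overlapped between the stretches on each arm in both replicates.

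**Figure D5:**
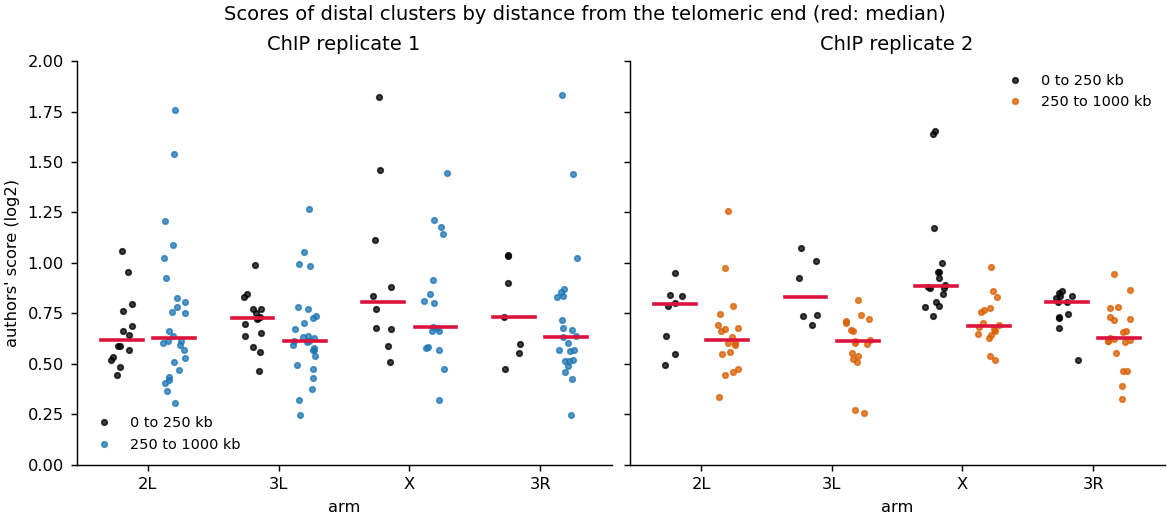
Authors' log2 score of each distal Smc3 cluster by arm, for clusters from 0 to 250 kb (black) and from 250 to 1000 kb (coloured) of the telomeric end, with 1 panel per replicate and red bars at the medians. In replicate 2 the outer medians of 0.79 to 0.88 lie above the inner medians of 0.61 to 0.69 on each arm, while in replicate 1 the 2L medians of 0.62 and 0.63 are level.

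Among replicate-set clusters found in both replicates, the 3 highest distal scores belonged to 3R and 2L. On 2L, the replicate-set cluster from 539614 to 542128 (score 1.39) matched clusters with scores of 1.76 in replicate 1 and 0.97 in replicate 2, whose starts lay at 539613 and 539644. Next on 2L came 489150 to 491748 (1.30), where replicate 1 scored 1.54 and replicate 2 reached its highest distal score of that arm, 1.26. On 3R, the cluster from 27282706 to 27285124 (1.44) was the highest of the distal 1 Mb in all 3 lists, with 1.83 in replicate 1 and 0.95 in replicate 2. The second on 3R, from 27492688 to 27495356 (0.83), had 1.44 in replicate 1 and 0.32 in replicate 2, so that the same place stood among the highest distal scores of one list and was the lowest of distal 3R in the other.

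On X, the wide replicate-set cluster from 94882 to 103114, 8233 bp with a score of 0.83, held 3 clusters of replicate 1 and 2 of replicate 2. Their scores were 1.11, 1.46 and 1.82 in replicate 1 and 1.65 and 1.64 in replicate 2, and they include the highest distal score of X in each replicate. Another region on X, 967286 to 969370 (0.92), carried 1.44 in replicate 1 but 0.54 in replicate 2. For 3L the corresponding regions were 938328 to 940396 (0.94), with 1.27 in replicate 1 and 0.55 in replicate 2, and 504838 to 507228 (0.93), with the more even values of 0.99 and 0.82. The highest replicate-set score of the whole distal set, 3.58, belonged to a cluster of 1017 bp on 3L from 118422 to 119438, and neither replicate had a cluster there.

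Each arm also had a long stretch that was empty in both replicates. The longest was on 2L, 127.7 kb from 680899 to 808556. Counting any overlap, 3 replicate-set clusters reached into it and covered 2.13% of it. Among them, that from 808526 to 810594 entered only at the edge. On X it was 110.0 kb from 666266 to 776274, with 5 replicate-set clusters reaching into it. Among these, that from 664974 to 666432 entered only at the edge. On 3R it was 79.3 kb from 27116464 to 27195722, and on 3L 78.6 kb from 753964 to 832593. All 4 stretches began between 666.3 and 754.0 kb from the telomeric end. On 3L, however, other stretches empty in both replicates were nearly as long and lay farther out. They ran between clusters ending at 428908 and starting at 504852, and between clusters ending at 544307 and starting at 621213. The longest empty stretches of the next 4 Mb were not measured here. The genes in these stretches and stretches of undetermined bases were not analysed here.

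A minority of the distal clusters of each replicate were found again in the other. Of the 139, 48 or 34.5% (95% exact binomial interval 26.7 to 43.1) overlapped a replicate 2 cluster by at least 1 bp, where 51.8% of all replicate 1 clusters and 32.4% of those in the next 4 Mb did. In the other direction, 49 of 113 or 43.4% (34.1 to 53.0) of replicate 2 clusters were found in replicate 1, where 54.6% of all its clusters and 50.6% of those in the next 4 Mb were. In bases, 80.3 kb of the distal 1 Mb of the 4 arms lay inside clusters of both replicates, 28.4% of the bases covered in replicate 1 and 39.8% of those covered in replicate 2, against 26.8% and 48.0% in the next 4 Mb. The distal shares were thus slightly above those farther in for replicate 1, below them for replicate 2, and by count of clusters below those of the whole lists for both. The intervals cover counting error only.

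By arm, the share of replicate 2 clusters found in replicate 1 was 53.8% on 2L (14 of 26), 52.2% on 3L (12 of 23), 40.6% on 3R (13 of 32) and 31.2% on X (10 of 32). In the next 4 Mb it was 38.1% on 2L, 47.6% on 3L, 50.5% on 3R and 70.5% on X (86 of 122). In this direction the share was thus higher at the end of 2L and 3L and lower at the end of 3R and X. For replicate 1 clusters found in replicate 2, the order was the opposite on each arm, by little on 2L and 3L. Those shares were 35% at the end and 35.8% farther in on 2L, and 28.6% and 30.1% on 3L. They were 40% and 31.6% on 3R, and 37.0% and 32.1% on X. Within distal X the sharing split by distance, since 7 of the 10 replicate 1 clusters in its outer 250 kb were found in replicate 2, against 3 of the 17 behind them. On 2L the order was the reverse, with 2 of 14 in the outer 250 kb and 12 of 26 behind. Pooled over arms, the outer 250 kb, although more densely covered, did not share more clusters, at 14 of 46 for replicate 1 and 15 of 42 for replicate 2, against 34 of 93 and 34 of 71 behind it.

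Shared distal clusters had higher scores than unshared ones in replicate 1, with medians of 0.83 and 0.59. In replicate 2 the order was the opposite, at 0.67 and 0.73. Widths showed the same order in both replicates, with medians of 2056 bp for shared and 1911 bp for unshared clusters in replicate 1. In replicate 2 they were 1902 and 1528 bp. The next 4 Mb had these orders too, with score medians of 0.81 and 0.63 in replicate 1 and of 0.63 and 0.69 in replicate 2. Median widths there were 2061 and 1966.5 bp in replicate 1, and 1746 and 1528 bp in replicate 2. Clusters that overlapped exactly 1 cluster of the other list, and were overlapped by no further one, formed 45 distal pairs, whose midpoints lay a median of 151 bp apart. The scores of these pairs were barely correlated (Spearman 0.061, Pearson 0.237 across 45 pairs). Pairs in the next 4 Mb were also weakly correlated (Spearman 0.167, Pearson 0.148 across 241 pairs). Clusters without a counterpart were mostly not near misses, since they lay a median of 9.56 kb (91 clusters of replicate 1) and 10.1 kb (64 clusters of replicate 2) from the nearest cluster of the other replicate, and 12 and 8 of them lay within 2 kb.

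The replicate-set list was denser than either replicate, and many of its distal clusters had no counterpart in them. Of its 379 distal clusters, 47 or 12.4% (95% exact binomial interval 9.26 to 16.1) overlapped clusters of both replicates, against 19.5% of the whole list and 15.1% of the next 4 Mb. A further 80 or 21.1% were found in replicate 1 alone, against 30.0% in the next 4 Mb, and 61 or 16.1% in replicate 2 alone, against 13.0%. The other 191, or 50.4% (45.2 to 55.5), were found in neither, against 42.0% (39.6 to 44.4) in the next 4 Mb. This excess came mainly from X, with 63.8% of its distal clusters against 33.2% farther in. The shares were 44.8% and 43.5% on 2L and 47.1% and 43.1% on 3R. On 3L the order was the opposite, at 41.6% and 48.3%. The distal clusters found in both were the widest, with a median of 2391 bp against 1229 bp for those found in neither. Their median score was 0.63 against 0.49. In the next 4 Mb the median widths were alike, at 2205 and 1216 bp. The lists differ in their narrowest distal cluster, 1302 bp in each replicate and 1001 bp in the replicate set. The median of 1229 bp is thus below any distal cluster of a replicate. Nearly all distal clusters of the replicates overlapped clusters of the replicate set, 129 of 139 for replicate 1 and 109 of 113 for replicate 2. The outer 250 kb of X held 42 replicate-set clusters, against 39 from 250 to 500 kb of X. The outer 250 kb of 2L, 3L and 3R held 36, 29 and 27. Of the 42 on X, 25 or 59.5% had no counterpart in either replicate. On X that share was 66.2% from 250 to 1000 kb and 33.2% in the next 4 Mb. In the outer 250 kb of all 4 arms, the replicate-set list covered 27.1% of bases. There, 64 of its 134 clusters or 47.8% had no counterpart in either replicate, against 51.8% from 250 to 1000 kb.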

How the data were processed

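The submitters' processing notes name Bowtie 0.12.7 as the aligner. Clusters are regions the authors called, 1 list per ChIP sample and 1 for the replicate set, and per the file headers their coordinates are those of FlyBase release 5. Not given in the sources used here are the caller and its cut-offs, the handling of multiply matching reads and how the replicate set was formed. The deposited score was taken to be on a log2 scale, since 2 to the power of score differences gave ratios of whole numbers, within a relative tolerance of 1e-12 and with denominators up to 3000, for 99.9%, 99.4% and 99.6% of clusters in replicate 1, replicate 2 and the replicate set. Powers of e or 10 gave at most 1.89%. What the ratio compares is not stated in the files; ChIP over control is presumed.

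The 4 samples were grouped by their titles. The replicate-set file also lists 2 regions of depletion, none of them distal, which were left out. Clusters were placed by midpoint, and cover was computed as a percent of bases after merging overlapping clusters. Windows of 50 kb were counted from the telomeric end. Sharing means an overlap of at least 1 bp, and intervals are exact Clopper-Pearson intervals at 95%. Regions named are, per arm, the outermost cluster of each list, the 2 top-scoring replicate-set clusters that both replicates hold, the longest run of bases that a cluster of each replicate shares, the densest window by mean cover and the longest stretch empty in both replicates. Further clusters at the extremes of width or score were named after their values were seen. No low-value filter was used, so every member entered. The members were chosen with earlier results of these data known, as were the choices of tests and alternatives. No annotation or genome of release 5 was used here, so the genes and sequences at the clusters were not analysed here. Functions were tested on simulated data. The software was Python 3.11.15 with scipy 1.17.1, numpy 2.4.6, pandas 2.3.3 and matplotlib 3.10.9.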

Additional observations from a re-analysis of the deposited data

Results flagged for a closer look

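The arms differed in the sign of some differences between the distal 1 Mb and the next 4 Mb, with both replicates of one arm on one side of 0 and both replicates of another arm on the other. These contrasts between arms were not tested. Cover was higher at the distal end of 3L, by 0.355 percentage points (0.53 and 0.18 in replicates 1 and 2), and lower on 2L (mean -1.35, with -0.18 and -2.52) and on X (mean -4.61, with -8.85 and -0.37). The median width was 47.5 bp higher on 3L (17 and 78 bp), against a mean of -108 bp on X and of -77.5 bp on 3R. The median score was higher on 3L by 0.02 (mean 0.022), on X by 0.0534 and on 3R by 0.0605, and lower on 2L in both replicates (mean -0.02). The replicate-set list did not keep all of these signs, with a cover difference of -0.0315 on 3L, a median width difference of 165 bp on 3L, -449 bp on X and -8 bp on 3R, and median score differences of 0.00935 on 2L and -0.00487 on X.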

How the results depend on the processing

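Apart from leaving out a replicate, 43 alternatives to the pooled results were run, and 26 moved them by no more than the SD over the replicates. The differences in cover (-1.70 percentage points) and cluster number (-8.31 per Mb) stayed within it under every alternative run, yet this SD is wide. The cover difference shrank to -0.472 with a stricter score (only clusters at or above the median of their list), -0.724 against the next 2 Mb, -0.733 without X and -1.19 with the outer 500 kb, and grew to -2.61 against the arm without its proximal 2 Mb. Replicate 2 was above 0 with the stricter score (0.56), against the next 2 Mb (0.465) and with the outer 500 kb (0.0836), as was the replicate set (0.163, 0.717 and 2.77). The number per Mb ran from -12.9 to -1.84, and in the replicate set it was 12.4 higher with the outer 500 kb. The difference in median width (-23 bp) moved under all 7, to -68.2 bp with the outer 500 kb, -1.75 bp against the next 2 Mb, -31.2 bp against the arm without its proximal 2 Mb, -12.8 bp without the outermost 50 kb, -7.94 bp with arms weighted equally, 33.2 bp without X and 70.5 bp with the stricter score, so its direction is not settled. The difference in median score (0.02) became 0.0653 with the outer 500 kb. Sharing between replicates (mean of both directions 38.9%) became 32.3% with the outer 500 kb and 25.2% with the stricter score. Cover of the outermost window (9.70%) became 11.3% with a window of 100 kb, 6.73% with the stricter score, 9.44% without X and 12.9% without 3L, the last chosen after seeing the data. The excess of the outer 250 kb (4.07 percentage points) became 3.92 without the outermost 50 kb, 4.49 with the stricter score (2.98 and 6.01 in replicates 1 and 2) and 3.81 without X (4.78 and 2.85), all added after seeing the data. Leaving out a replicate gave -2.89 to -0.51 for cover, -13.5 to -3.12 for clusters per Mb, -28 to -18 bp for width, -0.01 to 0.05 for score, 34.5% to 43.4% for sharing, 9.66% to 9.74% for the outermost window and 4.00 to 4.14 for the outer excess. Of the 23 differences in cover per arm under alternatives, 19 stayed within the SD. The sign changed on 3L against the arm without its proximal 2 Mb (-0.51) and on 3R with the stricter score (0.45). With an overlap of 50% of each cluster, 37 in place of 47 replicate-set clusters were found in both replicates and 205 in place of 191 in neither. No paired analysis was possible because the Input samples had no lists of their own here. Depth is unknown, so cover cannot be set against it.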

Other observations

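In the 45 distal pairs of matched clusters, the score of replicate 2 minus that of replicate 1 differed with distance from the end. A constant offset between the lists drops out when the medians of 2 stretches are compared with each other. It does not drop out of a single median or of the counts of pairs in which replicate 2 was higher. The comparison was made after the data were examined and was not tested. From 250 to 1000 kb the median was -0.29, and replicate 2 was higher in 9 of 34 pairs. In the next 4 Mb it was -0.16, with replicate 2 higher in 55 of 241 pairs. In the outer 250 kb it was 0.07, with replicate 2 higher in 7 of 11 pairs, among them 5 of 5 on X and 2 of 3 on 3L, but 0 of 2 on 2L and 0 of 1 on 3R. In the next 4 Mb of X, replicate 2 was higher in 18 of 79 pairs.

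The replicate-set list held a region of depletion on 3L from 1864474 to 1866166, with a score of -0.09, in the stretch used for comparison and outside the distal 1 Mb.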
